A study of Rattus norvegicus with 6 samples.

Results

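The miR-34 family was followed in small RNA libraries from rat plasma exosomes, through 6 mature arms that the deposited table lists as rno-miR-34a-5p, rno-miR-34a-3p, rno-miR-34b-5p, rno-miR-34b-3p, rno-miR-34c-5p and rno-miR-34c-3p, called without the species prefix from here on. They were chosen by name, out of 763 mature rat miRNAs in the table, and every one of them was found. The libraries came from male Sprague-Dawley rats aged 7 to 8 weeks, all labelled as otherwise untreated. Control rats went without remote ischemic pre-conditioning (RIPC) and gave Control-exosome (C-exo, 3 libraries). The other rats had 4 cycles of 5 min ischemia and 5 min reperfusion of both hind limbs under anesthesia, and gave RIPC-exosome (R-exo, 3 libraries). Blood of both groups was drawn 48 h later, at the late phase of RIPC, and exosomes, the small membrane vesicles that cells release into plasma, were pelleted by differential centrifugation. The sources used here do not say whether a library held plasma of 1 rat or a pool, so a p-value measures the spread between these libraries only.

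A miRNA stem-loop is cut into a 5p and a 3p arm, and as a rule 1 of them is loaded into Argonaute to repress transcripts that pair with its seed, bases 2 to 8. The miR-34 family is best known as a direct transcriptional target of p53, the factor that halts the cell cycle or starts apoptosis after DNA damage. miR-34a is made in many tissues from a transcript of its own, and its inhibition protects the heart in rodent models of aging and infarction. miR-34b and miR-34c come from 1 shared transcript that is rich in testis, lung and other tissues with ciliated cells, and they act together with the miR-449 family in forming motile cilia. In NCBI RefSeq genes of the rat assembly GRCr8, Mir34c and Mir34b followed each other on chromosome 8, both within the span of Hoatz and with Btg4 beside Mir34b, while Mir34a lay on chromosome 5 beside Gpr157.

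The mature sequences show which arms could stand in for one another, both for a target and for a read counter. All 6 names matched a RefSeq sequence of GRCr8. They are printed 5′ to 3′ with the seed in capitals, the 5p arms first.
miR-34a-5p: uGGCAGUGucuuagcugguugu
miR-34b-5p: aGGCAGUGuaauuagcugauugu
miR-34c-5p: aGGCAGUGuaguuagcugauugc
miR-34a-3p: aAUCAGCAaguauacugcccua
miR-34b-3p: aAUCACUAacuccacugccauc
miR-34c-3p: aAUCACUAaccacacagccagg
The 3 5p arms shared the seed GGCAGUG, which 5 of the 693 mature rat sequences in the RefSeq table carried, the other two being miR-449a-5p and miR-449c-5p. miR-34b-3p and miR-34c-3p shared the seed AUCACUA, which no other sequence in the table had, and the seed of miR-34a-3p was its own. miR-34c-5p differed from miR-34b-5p at 2 of 23 bases, G11A and C23U, where the first letter belongs to miR-34c-5p and position 1 is the 5′ base. Reads of these arms could therefore have been divided between them by the counting, whose mismatch rule is not given in the sources used here. The 3p arms of miR-34b and miR-34c differed at 5 of 22 bases and, compared base by base without gaps, miR-34a-5p differed from miR-34c-5p at 11 of 22. With 1 gap of 1 base after base 9 of miR-34a-5p, the differences came to 4.

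Total counts were between 5484209 and 7531737 per library, so that the 3 counts taken as the floor of detection amounted to 0.369 to 0.672 CPM, the unit in which counts are scaled to a common library size. Levels and this floor are CPM after TMM scaling, which corrects each library for its composition. A read of a miRNA spans the whole mature arm, and CPM of different arms were compared without a length term; the ligation efficiency of each sequence was not measured. CPM is a share of the counted miRNA reads, and fewer vesicles of a type cannot be told apart from less of a miRNA per vesicle. Over the 404 tested miRNAs, C-exo replicate 3 had a Spearman rho of 0.965 to 0.983 with the R-exo libraries and of 0.902 and 0.931 with the other C-exo libraries, a correlation across miRNAs, which are not independent replicates. The fold change of each tested arm is given with and without it. Leaving it out changed the background too: of the 422 miRNAs then tested, 43.1% met the study's criterion of fold change and p (stated with the calls below), 23.7% as higher in R-exo, and 31.3% had an adjusted p below 0.05 (edgeR). C-exo replicate 3 was singled out for its likeness to R-exo, so a wider gap between the groups without it was built in. Calls and p-values of that fit are therefore not evidence by themselves.

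The family was a rare cargo. Its 6 arms took 67, 190 and 187 reads in C-exo replicates 1, 2 and 3 and 242, 314 and 233 reads in R-exo replicates 1, 2 and 3, between 0.00122% and 0.00450% of a library. Of the 1233 reads in all, 744 were miR-34c-5p (60.3%), 192 miR-34b-3p, 187 miR-34c-3p, 63 miR-34a-5p and 47 miR-34b-5p. miR-34a-3p had no read in any library, which allows up to 0.672 CPM in the library with the highest floor, C-exo replicate 1. By mean CPM over the libraries, miR-34c-5p ranked 262 among the 598 miRNAs with any count, miR-34b-3p 335, miR-34c-3p 337, miR-34a-5p 406 and miR-34b-5p 426. miR-34c-5p exceeded every other arm within each library. The ranges of miR-34b-3p and miR-34c-3p overlapped, as did those of miR-34a-5p and miR-34b-5p, so the order within these pairs was not larger than the spread.

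miR-34c-5p was the arm with enough reads in every library for a firm level. It had 42, 117 and 114 reads in C-exo replicates 1, 2 and 3 and 138, 178 and 155 reads in R-exo, or 9.41, 14.98 and 16.2 CPM against 17.0, 25.6 and 20.5 CPM. Every R-exo library lay above every C-exo library, though R-exo replicate 1 and C-exo replicate 3 were less than 1 CPM apart. The R-exo mean was 21.0 ± 4.31 CPM and the C-exo mean 13.5 ± 3.62 CPM (SD, n = 3 for both, exact two-sided permutation p = 0.1, the smallest that 3 against 3 allows). The log2 fold change came to 0.63 (standard error 0.45, unadjusted p = 0.196, adjusted p = 0.511 by the quasi-likelihood test of edgeR, with Benjamini-Hochberg adjustment for 404 tested miRNAs), with a 95% interval from -0.39 to 1.65. The value was 0.79 (unadjusted p = 0.114) without C-exo replicate 3 and 0.37 (unadjusted p = 0.455) without C-exo replicate 1, the lowest library. Adding the reads of miR-34b-5p to it, an alternative chosen after the data were seen, gave 0.61. The added arm held 47 reads against 744, so the sum could move little whatever the counting had done.

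miR-34a-5p, the arm most often studied for p53 and the heart, was close to the floor. It had 0, 6 and 6 reads in C-exo replicates 1, 2 and 3 and 20, 12 and 19 reads in R-exo, which is 0, 0.768 and 0.853 CPM against 2.46, 1.72 and 2.51 CPM. All R-exo libraries were above all C-exo libraries, with 51 reads against 12 in all. The R-exo mean was 2.23 ± 0.440 CPM and the C-exo mean 0.541 ± 0.470 CPM (SD, n = 3 for both). The log2 fold change came to 1.92 (standard error 0.89, unadjusted p = 0.0588, adjusted p = 0.473 by the edgeR test), with a 95% interval from -0.09 to 3.92. Without C-exo replicate 3 it was 2.29 (unadjusted p = 0.0462, adjusted p = 0.103 by the edgeR test), as 23.7% of all tested miRNAs were then called higher in R-exo. Without C-exo replicate 1 it was 1.40 (unadjusted p = 0.116). The filter on low counts asks for 1.42 CPM in 3 libraries, and miR-34a-5p met it in the R-exo libraries alone. A miRNA that enters the test in this way had to have every R-exo library above every C-exo library, so neither its direction nor the gap between the groups is evidence by itself, and no permutation p is given. Before TMM scaling, the Wilson 95% intervals of R-exo replicate 2 (0.983 to 3.00 CPM) and of C-exo replicate 2 (0.391 to 1.86) overlapped. They cover counting error only.

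**Figure D1:**
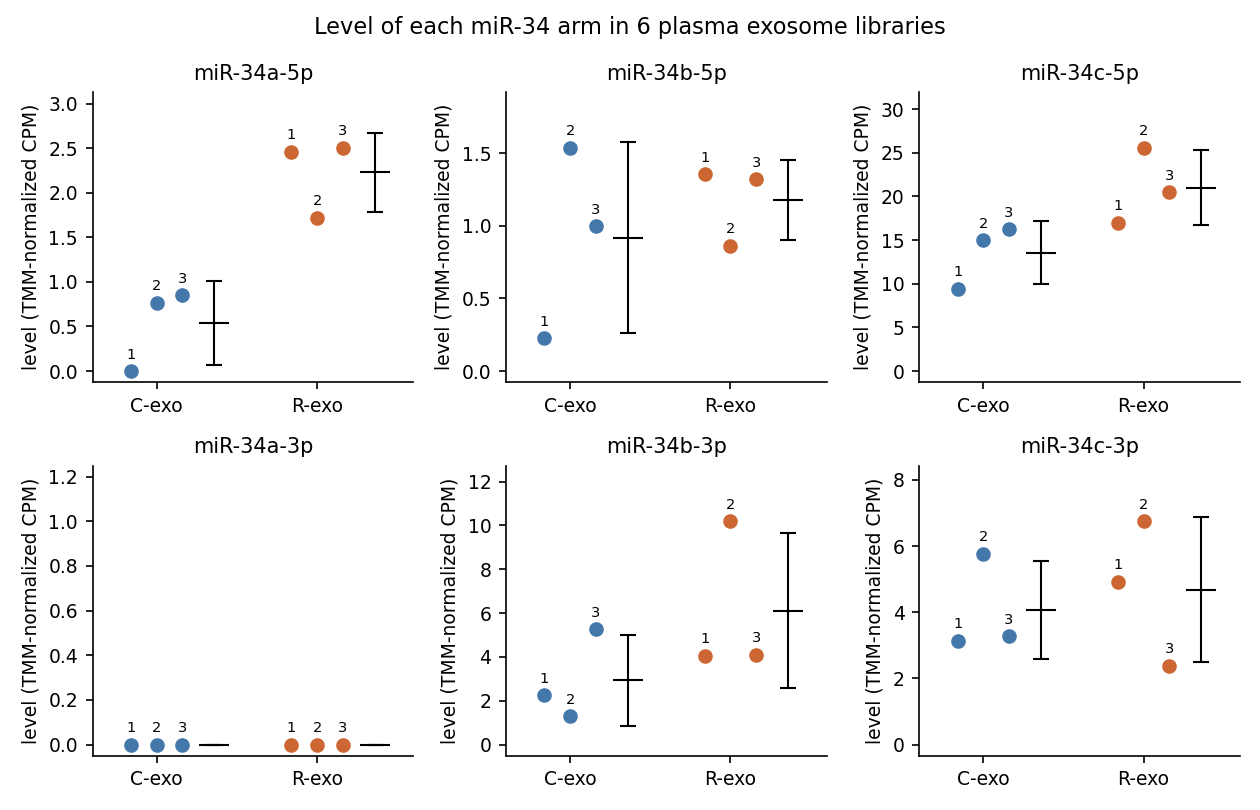
Level of each miR-34 arm, in TMM-normalized CPM on a linear axis that differs between panels, in C-exo (blue) and R-exo (orange). Points are libraries with their replicate number, and the bar beside them is the mean with 1 SD (n = 3). The R-exo points lie above the C-exo points for miR-34a-5p and miR-34c-5p, overlap with them for miR-34b-5p, miR-34b-3p and miR-34c-3p, and all points of miR-34a-3p are at 0.

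The 3p arms carry another seed, and for neither of the tested pair did the groups separate. miR-34b-3p had 10, 10 and 37 reads in C-exo replicates 1, 2 and 3 and 33, 71 and 31 reads in R-exo, or 2.24, 1.28 and 5.26 CPM against 4.06, 10.2 and 4.09 CPM. C-exo replicate 3 exceeded R-exo replicates 1 and 3, and R-exo replicate 2 was the highest library. The log2 fold change of miR-34b-3p came to 1.05 (standard error 0.71, unadjusted p = 0.172, adjusted p = 0.508 by the edgeR test; means 6.12 ± 3.53 and 2.93 ± 2.08 CPM, SD, n = 3 each). Without C-exo replicate 3 it was 1.82 (unadjusted p = 0.0246, adjusted p = 0.0670 by the edgeR test), beside the same 23.7% of all tested miRNAs, and without R-exo replicate 2 it was 0.51 (unadjusted p = 0.562). Libraries on either side of this comparison therefore set its size.

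miR-34c-3p had 14, 45 and 23 reads in C-exo replicates 1, 2 and 3 and 40, 47 and 18 reads in R-exo, or 3.14, 5.76 and 3.27 CPM against 4.93, 6.75 and 2.38 CPM. The C-exo libraries lay within the range of the R-exo libraries, the lowest library being R-exo replicate 3. Its log2 fold change came to 0.20 (standard error 0.61, unadjusted p = 0.754, adjusted p = 0.886 by the edgeR test), with a 95% interval from -1.18 to 1.57, and it turned negative without C-exo replicate 1 (-0.06) or without R-exo replicate 2 (-0.20). It was 0.06 without C-exo replicate 3. miR-34b-5p, with 1, 12 and 7 reads in C-exo and 11, 6 and 10 reads in R-exo, did not pass the filter. Without the filter its log2 fold change came to 0.24 (standard error 1.03, unadjusted p = 0.815, adjusted p = 0.935 by the edgeR test over 598 miRNAs). Its R-exo mean was 1.18 ± 0.275 CPM and its C-exo mean 0.919 ± 0.660 CPM (SD, n = 3 for both, exact two-sided permutation p = 0.7).

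Of the 6 arms, 4 passed the filter and 0 of these met the study's criterion in the quasi-likelihood test of edgeR, a change of more than 2-fold whose unadjusted p was below 0.05. It was met by 9.41% of all tested miRNAs, and by 1.98% in the direction of R-exo. An adjusted p below 0.05 was reached by 0% of them with all libraries, against the 31.3% without C-exo replicate 3. DESeq2 also called 0 of the 4, against 12.1% of all tested miRNAs and 4.21% as higher in R-exo, and 0 of the 4 had an unadjusted p below 0.05 with either tool. edgeR's exact test and limma-voom each called 1, miR-34a-5p, at an unadjusted p of 0.0126 and 0.0359 and an adjusted p of 0.341 and 0.379. These tools called 2.72% and 6.68% of all tested miRNAs higher in R-exo. For miR-34c-5p the R-exo libraries all lay above the C-exo libraries, which held for 4.95% of the tested miRNAs, and groups were apart in either direction for 12.9%. The same order in miR-34a-5p is not set against these shares, since the filter fixed it. The criterion called 8 miRNAs higher and 30 lower in R-exo under TMM. Scaled to library size only (RPM), it called 33, of which 18 were higher, and the median over tested miRNAs moved from -0.05 to 0.10 on the log2 scale. The log2 fold changes of the 4 arms were above 0 under both scalings, at 2.02, 1.21, 0.74 and 0.30 under RPM for miR-34a-5p, miR-34b-3p, miR-34c-5p and miR-34c-3p. For miR-34a-5p the filter had fixed this sign, so it does not count in that agreement.

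**Figure D2:**
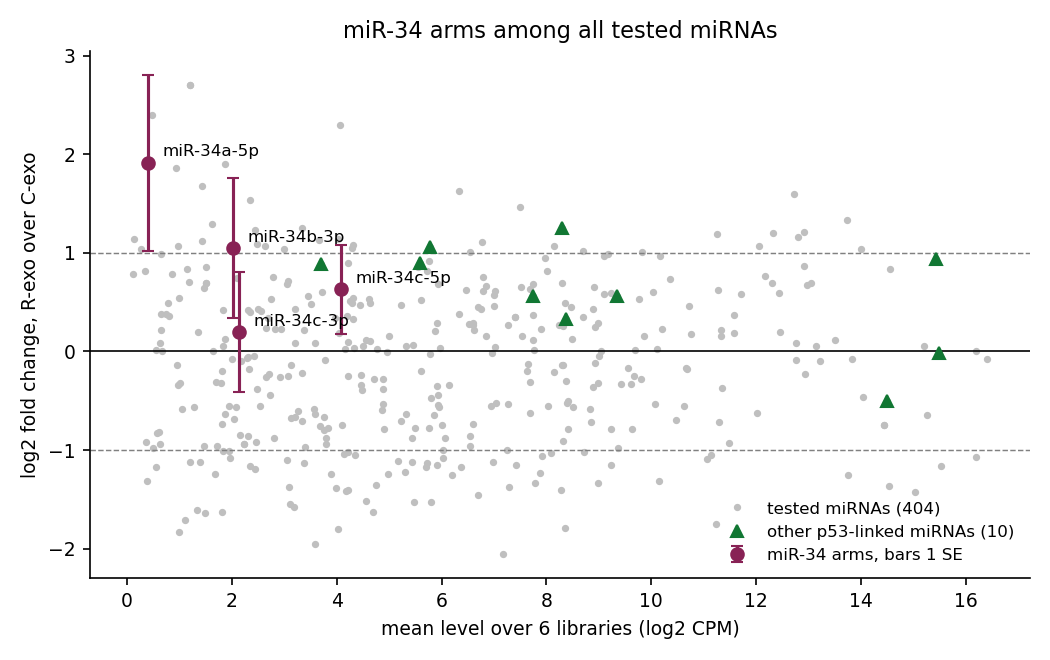
Log2 fold change of R-exo over C-exo against the mean level in log2 CPM for the 404 tested miRNAs (grey), the 4 tested miR-34 arms (purple, bars of 1 standard error) and 10 other p53-linked miRNAs (green triangles). Dashed lines mark a fold change of 2 in either direction. miR-34a-5p, at 1.92, lies at the low end of the levels, and the bar of miR-34c-3p crosses 0.

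The stem-loops of miR-34b and miR-34c, which share a transcript, differed in the arm that gave more reads. Both are printed 5′ to 3′ from RefSeq (GRCr8), with the 5p and then the 3p arm in capitals.
Mir34b: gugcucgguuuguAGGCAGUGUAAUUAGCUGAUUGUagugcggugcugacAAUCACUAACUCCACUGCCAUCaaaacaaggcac
Mir34c: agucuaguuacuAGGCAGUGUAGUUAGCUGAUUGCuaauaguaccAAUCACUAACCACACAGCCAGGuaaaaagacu
In miR-34c the 5p arm outnumbered the 3p arm in 6 of 6 libraries, 744 reads against 187. In miR-34b the 3p arm was the larger in 5 of 6 libraries, 192 reads against 47, the exception being C-exo replicate 2 with 12 reads of the 5p and 10 of the 3p arm. The 5p share of miR-34b was 9.09%, 54.5% and 15.9% in C-exo replicates 1, 2 and 3 and 25.0%, 7.79% and 24.4% in R-exo, on 11 to 77 reads a library. That of miR-34c was 75.0%, 72.2% and 83.2% in C-exo and 77.5%, 79.1% and 89.6% in R-exo, on 56 to 225 reads. Within each library the share was lower in miR-34b, and the Wilson 95% intervals of the pair overlapped in C-exo replicate 2 alone (34.7% to 73.1% for miR-34b, 64.9% to 78.5% for miR-34c). The 5p share of miR-34c did not separate the groups, at 82.1% ± 6.56 in R-exo and 76.8% ± 5.71 in C-exo (SD, n = 3 each, difference 5.27 percentage points, exact two-sided permutation p = 0.4). miR-34b had under 20 reads in C-exo replicate 1 and its share was not tested.

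**Figure D3:**
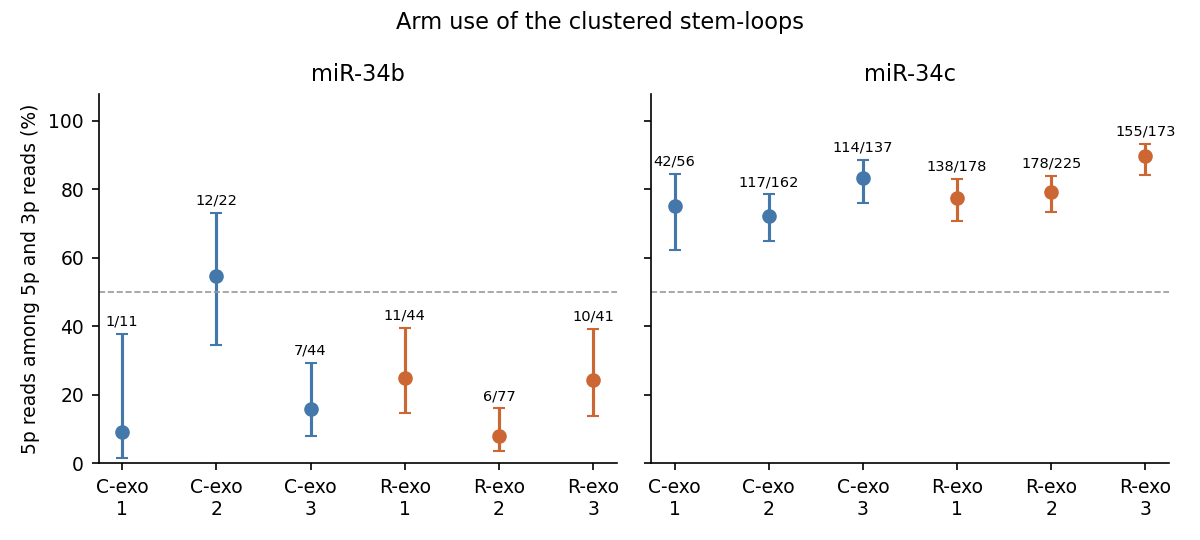
Percent of 5p reads among the 5p and 3p reads of miR-34b and miR-34c in each library, with Wilson 95% intervals and the reads behind each point (5p of all), C-exo in blue and R-exo in orange. The dashed line marks equal use of both arms. miR-34c stays between 72.2% and 89.6%, and miR-34b lies at or under 25.0% in every library but C-exo replicate 2.

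Seen by arm, the pair was unequal in its 5p reads in 1 direction in every library, and in its 3p reads in either direction. miR-34b took between 2.33% and 9.30% of the 5p reads of the pair, and never more than miR-34c. Of the 3p reads it took 41.7%, 18.2% and 61.7% in C-exo replicates 1, 2 and 3 and 45.2%, 60.2% and 63.3% in R-exo, and it exceeded miR-34c in 3 of 6 libraries. The Wilson 95% interval lay below equal shares in C-exo replicate 2 (10.2% to 30.3%) and above them in R-exo replicate 2 (51.1% to 68.5%). The 5p arms are the ones that differ at only 2 bases, and whether the counting moved reads from miR-34b-5p to miR-34c-5p was not tested.

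The miR-449 family shares the 5p seed and the link to ciliated cells, but lies elsewhere, on chromosome 2 in GRCr8. The table lists 4 of its arms, of which miR-449a-5p alone had reads in more than 1 library. It had 0, 9 and 16 reads in C-exo replicates 1, 2 and 3 and 19, 9 and 9 reads in R-exo, 1.14 ± 1.14 CPM against 1.61 ± 0.637 CPM (SD, n = 3 each), with overlap between the groups. It did not pass the filter. Its level was about that of miR-34a-5p, with ranks 407 and 406 by mean CPM. miR-449c-5p had 3 reads in R-exo replicate 1 and 0 elsewhere, and miR-449a-3p and miR-449c-3p had none. miR-34c-5p thus held most of the reads with the seed GGCAGUG in every library.

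Other miRNAs that p53 is known to induce or to process were read from a list, chosen with earlier results of these data known. All 10 of them in the table were tested, 8 were above 0 in log2 fold change (48.8% of all tested miRNAs were), and 0 met the criterion in either direction or reached an unadjusted p below 0.05 (lowest unadjusted p = 0.135, lowest adjusted p = 0.508, edgeR). Their median log2 fold change was 0.73, against -0.05 over all tested miRNAs. The 10 come from the same libraries and are not independent replicates, so such counts and medians only describe them. Without C-exo replicate 3 their median was 1.45, against 0.01 over all tested miRNAs, and 6 of the 10 met the criterion as higher in R-exo and 0 as lower, in the fit that called 23.7% of all tested miRNAs higher. Leaving out that library, singled out for its likeness to R-exo, builds in a wider gap, so these calls are not evidence. The most abundant of the 10 were miR-192-5p and miR-143-3p. miR-192-5p, a miRNA of liver and gut epithelium, had 51290, 47290 and 40970 CPM in the control libraries against 45030, 46430 and 46930 CPM after RIPC, and its log2 fold change was -0.01 (standard error 0.35). miR-143-3p, a smooth muscle miRNA, changed by 0.94 on the log2 scale (standard error 0.59) and was lowest, at 10780 CPM, in C-exo replicate 1. miR-22-3p and miR-194-5p had log2 fold changes of -0.50 and 0.56 (standard errors 0.42 and 0.63). All 4 overlapped between the groups, and each of the 4 outnumbered miR-34c-5p in every library.

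Across the 6 libraries the 4 tested arms varied together to different degrees. The Pearson r of log2 CPM was 0.866 between miR-34a-5p and miR-34c-5p, 0.717 between miR-34b-3p and miR-34c-5p, 0.498 between miR-34a-5p and miR-34b-3p and 0.342 between both arms of miR-34c. It was 0.178 between miR-34a-5p and miR-34c-3p and 0.137 between miR-34b-3p and miR-34c-3p, which share a transcript and a seed. These are descriptions over 6 points that share library size and composition. miR-34a-5p and miR-34c-5p also share the order of the groups, which the filter fixed for miR-34a-5p, and C-exo replicate 1 as their lowest library. Outside the family, miR-143-3p (0.939), miR-10a-3p (0.932) and miR-208a-3p (0.925) were most like miR-34c-5p. miR-208a-3p, from an intron of a cardiac myosin gene, had 0, 0.896 and 2.13 CPM in the control libraries against 2.09, 3.59 and 5.94 CPM after RIPC. It was under or near the floor in C-exo replicates 1 and 2 alone. Those most like miR-34b-3p were miR-142-5p (0.950), miR-15b-3p (0.949) and miR-361-5p (0.941). miR-142-5p, a miRNA of blood cells, had 2444, 2321 and 18750 CPM in the control libraries against 8892, 24670 and 9243 CPM after RIPC, high in the same C-exo replicate 3 and R-exo replicate 2 as miR-34b-3p.

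Markers of possible source tissues were set beside these levels. An X-linked cluster of testis miRNAs has 21 names in the table, 8 of them at 0 in every library, and its summed level was 12.8, 2.82 and 2.42 CPM in C-exo replicates 1, 2 and 3 and 6.90, 51.0 and 6.99 CPM in R-exo. R-exo replicate 2 was also the highest library of miR-34b-3p, miR-34c-5p and miR-34c-3p, but not of miR-34b-5p, at 0.862 CPM, nor of miR-34a-5p, at 1.72 CPM, the lowest of the R-exo libraries. Without it the log2 fold change of miR-34c-5p was 0.45 (unadjusted p = 0.471, edgeR). Within C-exo the order went the other way: replicate 1 had the highest testis sum but the lowest miR-34c-5p and miR-34c-3p, at 9.41 and 3.14 CPM. The endothelial miR-126a-3p ran from 4632 to 15880 CPM in C-exo and from 19840 to 30020 CPM in R-exo, apart between the groups like miR-34c-5p, and its log2 fold change came to 1.34 (standard error 0.52, unadjusted p = 0.0291, adjusted p = 0.461 by the edgeR test). The other arm of that stem-loop, miR-126a-5p, which was looked up after the data were seen, overlapped between the groups, at 389.5 ± 434.8 CPM in C-exo and 531.6 ± 217.6 CPM in R-exo (SD, n = 3 each, log2 fold change 0.45, unadjusted p = 0.576, edgeR). Summed levels of 4 red cell miRNAs were 198100, 92400 and 69280 CPM in C-exo replicates 1, 2 and 3 and 44540, 74970 and 60170 CPM in R-exo. The highest, C-exo replicate 1, was also the lowest library of miR-34c-5p and had no read of miR-34a-5p. miR-486 made up most of that sum, with a log2 fold change of -1.07, while miR-144-3p (1.07) and miR-144-5p (1.63) lay apart between the groups, higher in R-exo (unadjusted p = 0.0226 and 0.0176, adjusted p = 0.461 for both by the edgeR test), and miR-451-5p (0.37) overlapped. Summed levels of 4 platelet and leukocyte miRNAs ran from 3553 to 21390 CPM in C-exo and from 11450 to 26860 CPM in R-exo, the highest being R-exo replicate 2 here as well. That sum followed miR-142-5p (2321 to 24670 CPM over the 6 libraries), and its members had log2 fold changes of 0.86 for miR-142-5p, 0.97 for miR-142-3p, 0.03 for miR-150-5p and -0.36 for miR-223-3p, all overlapping between the groups. Levels of 3 striated muscle miRNAs summed to 1467 to 9539 CPM and to 1623 to 4949 CPM. The liver miR-122-5p ran from 28300 to 67050 CPM in C-exo and from 28770 to 35620 CPM in R-exo, and 2 neuronal miRNAs together from 20.9 to 44.4 CPM and from 31.4 to 62.1 CPM. C-exo replicate 1, which had the fewest counts, was the lowest library for the endothelial, striated muscle, liver and neuronal levels, as for miR-34c-5p. The platelet and leukocyte sum was lowest in C-exo replicate 2. The part of any of these tissues in the levels of the miR-34 arms was not tested.

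**Figure D4:**
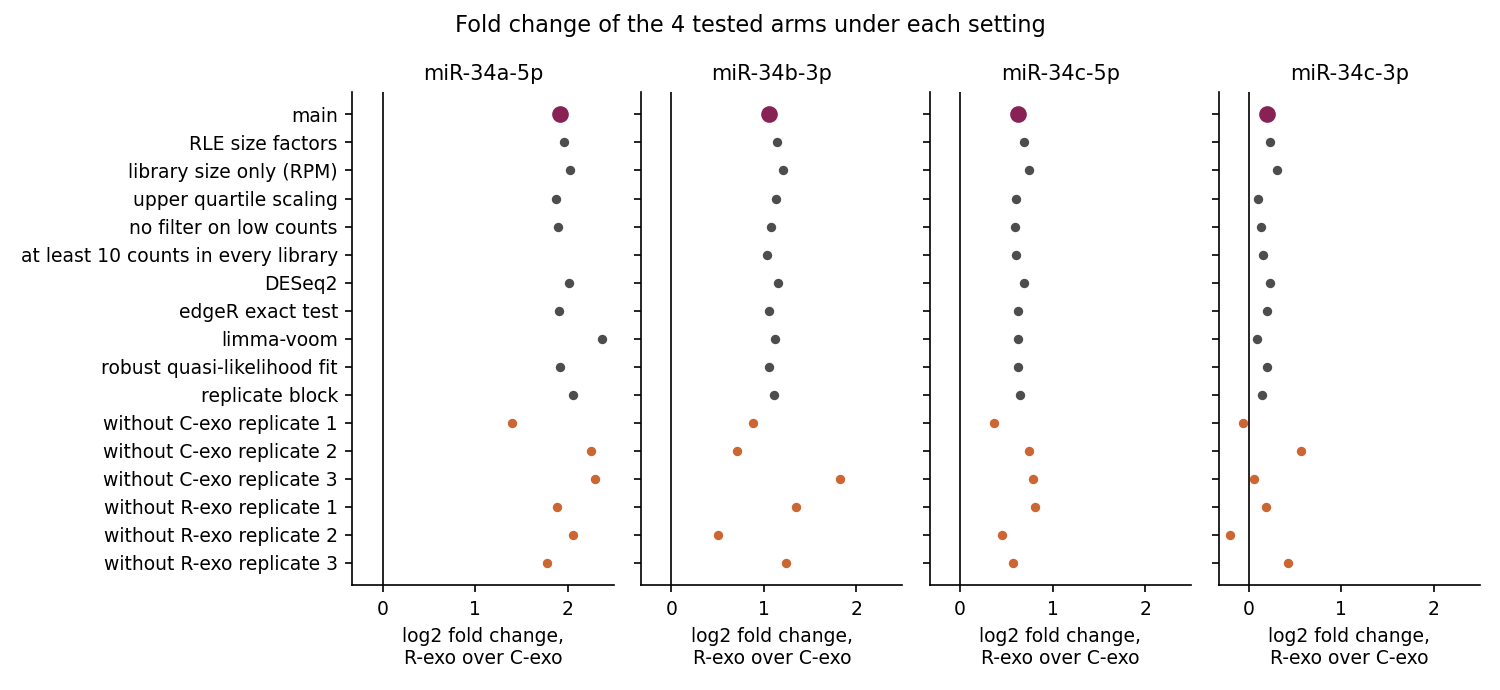
Log2 fold change of R-exo over C-exo for the 4 tested arms, as reported (large purple point), under other scalings, filters and tests (grey) and with 1 library left out (orange). miR-34a-5p has no value under the stricter filter. Values of miR-34a-5p, miR-34b-3p and miR-34c-5p stay above 0 in all settings drawn, and those of miR-34c-3p cross 0 when C-exo replicate 1 or R-exo replicate 2 is left out. miR-34a-5p passed the filter on low counts through R-exo alone, so its sign in the filtered settings is not evidence.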

How the data were processed

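Small RNA of plasma exosomes was sequenced on an Illumina HiSeq platform (3 C-exo and 3 R-exo libraries). The authors deposited raw counts of reads per mature miRNA, with a column for each library. The submitters' processing notes name bcl2fastq, BWA and the build rn6, with no versions. The database of miRNAs and the rule for reads with several matches are not given in the sources used here. All columns were used, and groups and replicate numbers came from the labels.

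edgeR 4.0.16 under R 4.3.3 was used for the counts. filterByExpr (minimum count 10, minimum total 15) left 404 of 598 detected miRNAs. After TMM scaling, the effect of RIPC was fitted by the quasi-likelihood test, without covariates, and p-values were adjusted by Benjamini-Hochberg over the 404. The common dispersion was 0.285 (biological spread on the negative binomial scale). A prior count of 2 entered log2 CPM. For single values exact two-sided permutation tests were run. Wilson 95% intervals cover counting error only, since the PCR reads carry no molecular identifiers. None of the 15 pairs of libraries agreed within sampling noise. DESeq2 1.42.0, limma 3.58.1 (voom) and other scalings and filters were alternatives. The labels give no batch. Python 3.11.15 with matplotlib 3.10.9 drew the figures. The members and lists were chosen with earlier results of these data known. Named miRNAs were the 6 arms, the miR-449 arms, 4 of the p53-linked list by highest mean CPM, the 3 miRNAs most like each of the 2 most abundant arms, and the marker lists. Coordinates are not given, since the RefSeq tables use another build (GRCr8) than the notes name.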

Additional observations from a re-analysis of the deposited data

How the results depend on the processing

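With all 6 libraries kept, the log2 fold change under other settings ranged from 1.87 to 2.37 for miR-34a-5p (9 alternatives; adjusted p 0.341 to 0.491 over edgeR, DESeq2 and limma), from 1.04 to 1.21 for miR-34b-3p (10), from 0.60 to 0.74 for miR-34c-5p (11) and from 0.09 to 0.30 for miR-34c-3p (10). miR-34a-5p met the criterion in 2 of its 9, edgeR's exact test (1.90) and limma-voom (2.37), and could not be fitted with at least 10 counts in every library. Since it passed the filter through R-exo alone, these 2 calls are not evidence by themselves. With 1 library left out in turn the values ran from 1.40 to 2.29 for miR-34a-5p, from 0.51 to 1.82 for miR-34b-3p, from 0.37 to 0.81 for miR-34c-5p and from -0.20 to 0.57 for miR-34c-3p, which turned negative without C-exo replicate 1 (-0.06) and without R-exo replicate 2 (-0.20). Without C-exo replicate 3, miR-34a-5p (2.29, unadjusted p = 0.0462, adjusted p = 0.103) and miR-34b-3p (1.82, adjusted p = 0.0670) met the criterion in edgeR's quasi-likelihood test, in a fit that called 182 of 422 tested miRNAs, 100 of them higher in R-exo, and gave 132 an adjusted p under 0.05. That library stood out by its likeness to R-exo, so calls made without it are not evidence by themselves. The difference in the 5p share of miR-34c ran from 1.51 to 8.47 percentage points with 1 library left out. Over all tested miRNAs the criterion called 38, but 63 without the filter on low counts, where 598 miRNAs were tested, and between 15 and 182 with 1 library left out, the highest without C-exo replicate 3. With the replicate number as a block, 38 were called, 25 of them higher in R-exo, and the values of the 4 arms were 2.05, 1.11, 0.65 and 0.14, with none meeting the criterion. The groups share only the numbers: deviations of same-numbered libraries correlated at 0.329, -0.275 and 0.279, and not every library correlated best with its own number. The causes of these changes were not tested. Depth limits miR-34a-5p, miR-34b-5p and miR-449a-5p, with 0 to 20 reads a library, and leaves miR-34a-3p with none.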
